A study of Homo sapiens with 4 samples.

Results

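Chromosome 17 carried 4249 of the 73833 peaks in 3 ChIP-seq peak lists from SK-Hep1 cells, a human line derived from a hepatic adenocarcinoma. The peaks were chosen by position alone, as every peak listed on chromosome 17: 1818 of 35307 peaks of acetylated histone H3 lysine 27 (H3K27ac) in cells with a control shRNA (the control library), 1956 of 34073 H3K27ac peaks in cells with an shRNA against SMARCB1 (the knockdown library), and 475 of 4453 SMARCB1 peaks. Cells stably expressing an shRNA had been selected with puromycin. The labels do not say which shRNA the cells of the SMARCB1 library carried, and the input library was not analysed here. Each group had 1 library, so no value has a replicate check, no test between conditions was made, and every interval printed is a 95% interval for the counting of peaks only. The chromosome was singled out with its share of peaks already known, so its totals are a description.

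H3K27ac marks active promoters and enhancers, and the width of a called region reflects how far the mark spreads around them. SMARCB1 is a core subunit of the SWI/SNF complexes, which use ATP to move or evict nucleosomes and are bound mostly at enhancers and promoters. Chromosome 17 is gene-dense and holds several tandem gene families, among them the type I keratins, the CC chemokines, the HOXB genes and the muscle myosin heavy chains, beside NF1, BRCA1 and ERBB2. The control library held 13235203 tags and the knockdown library 10203310, with 53.8% and 55.1% of them in peaks. Both H3K27ac lists had been called against the same control input, so the DNA content of the knockdown cells was not measured. Of the markers of the labelled line, H3K27ac lay at a gene end in both libraries at SERPINA1 alone of 8 hepatocyte genes and at none of 6 endothelial genes, with ALB, AFP, PECAM1 and CDH5 unmarked. FN1, VIM, COL1A1 and CDH2 were marked in both libraries and COL1A2 in the control only, so mesenchymal rather than hepatocyte markers were acetylated in this hepatic line. Of 5 epithelial genes, KRT8, KRT18 and KRT19 were marked in both libraries, EPCAM in the control only and CDH1 in neither, and CD68 was the only marked gene of 4 leukocyte genes.

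Of 1157 protein-coding genes on the chromosome, 824 had a promoter in the RefSeq table (GRCh38.p14). Each promoter was taken as the 250 bases before the start site. H3K27ac covered at least 1 base of it in both libraries at 557 genes and in neither at 249. It did so in the control only at 13 (1.58%) and in the knockdown only at 5 (0.607%). Promoters of other chromosomes were not counted in this way, so no genome share stands beside these. Of the 13 control-only promoters, 5 lay between 45 and 50 Mb (ARHGAP27, CRHR1, RPRML, CDK5RAP3 and PHOSPHO1), and 2 of the 5 knockdown-only promoters lay between 15 and 20 Mb (TBC1D28 and PRPSAP2), the intervals where the libraries differed most. Those intervals hold 82 and 67 of the 1157 genes. They were picked out from the same peak lists, so these placings are a description. The 6 promoters printed here were picked after their values were seen. They show a pair marked in the knockdown only (PRPSAP2, at chr17:18856049-18856298 on the plus strand, and TBC1D28, at chr17:18644392-18644641 on the minus strand), a pair marked in the control only (CRHR1, at chr17:45784070-45784319 on the plus strand, and RPRML, at chr17:46979254-46979503 on the minus strand) and a pair marked in both with a SMARCB1 peak (ACTG1, at chr17:81512800-81513049, and SREBF1, at chr17:17836987-17837236, both on the minus strand). They are written 5′ to 3′ on the gene's strand, and capitals mark matches to the 7 motifs described after them.
PRPSAP2: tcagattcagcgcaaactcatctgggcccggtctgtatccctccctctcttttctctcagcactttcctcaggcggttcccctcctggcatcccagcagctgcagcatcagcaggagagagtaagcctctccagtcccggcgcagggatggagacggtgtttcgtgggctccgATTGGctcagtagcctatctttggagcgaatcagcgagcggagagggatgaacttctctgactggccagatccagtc
TBC1D28: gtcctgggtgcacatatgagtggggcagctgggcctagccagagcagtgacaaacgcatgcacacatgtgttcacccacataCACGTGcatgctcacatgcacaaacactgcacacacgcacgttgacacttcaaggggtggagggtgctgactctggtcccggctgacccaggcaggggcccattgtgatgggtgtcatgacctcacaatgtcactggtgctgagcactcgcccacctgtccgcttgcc
CRHR1: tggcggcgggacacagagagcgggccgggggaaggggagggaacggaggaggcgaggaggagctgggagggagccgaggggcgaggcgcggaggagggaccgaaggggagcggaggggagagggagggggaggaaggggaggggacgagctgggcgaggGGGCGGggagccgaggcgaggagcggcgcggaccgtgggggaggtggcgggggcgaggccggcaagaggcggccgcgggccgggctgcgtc
RPRML: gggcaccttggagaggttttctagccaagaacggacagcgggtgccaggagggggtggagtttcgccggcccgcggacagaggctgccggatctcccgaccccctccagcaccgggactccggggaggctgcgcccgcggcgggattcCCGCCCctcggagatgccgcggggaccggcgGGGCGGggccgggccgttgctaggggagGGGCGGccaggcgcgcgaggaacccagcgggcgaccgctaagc
ACTG1: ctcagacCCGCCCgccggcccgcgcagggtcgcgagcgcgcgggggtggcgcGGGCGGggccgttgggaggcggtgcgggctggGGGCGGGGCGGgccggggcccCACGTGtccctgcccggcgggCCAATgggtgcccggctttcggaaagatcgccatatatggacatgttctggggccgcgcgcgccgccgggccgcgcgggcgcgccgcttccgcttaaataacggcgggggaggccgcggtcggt
SREBF1: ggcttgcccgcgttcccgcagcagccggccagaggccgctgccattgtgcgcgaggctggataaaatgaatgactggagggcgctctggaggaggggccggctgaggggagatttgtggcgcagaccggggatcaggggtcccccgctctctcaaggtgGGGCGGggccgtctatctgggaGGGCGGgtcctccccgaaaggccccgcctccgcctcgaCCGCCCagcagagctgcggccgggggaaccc

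All motifs were searched on both strands. The letters of AP-1 sites were TGACTCA, while TEAD sites were searched with the letters GGAATG, and ETS sites with the letters CCGGAA. For the SP/KLF family the letters GGGCGG were used, for NF-Y the letters CCAAT, for the TATA box its core letters TATAAA, and for the palindromic E-box the letters CACGTG. The PRPSAP2 promoter held 1 match, the NF-Y letters 77 bases before the start site, and the TBC1D28 promoter held 1 E-box 168 bases before it. The CRHR1 and RPRML promoters held 1 and 3 SP/KLF matches and no other motif. The ACTG1 promoter held 4 SP/KLF matches, of which a pair overlap, with an E-box and an NF-Y match between them and the start site. SREBF1 held 3 SP/KLF matches. Guanine and cytosine made up 58.0% of the PRPSAP2 and 58.8% of the TBC1D28 promoter, and 71.2% to 78.8% of the other four. Over all 27305 promoters of the table, 42.3% held the SP/KLF letters, 14.8% the ETS letters and 11.1% the TATA letters. On chromosome 17 the SP/KLF letters were in 70.9% of the promoters marked in both libraries and 28.5% of those marked in neither, the ETS letters in 25.1% and 4.82%, and the TATA letters in 6.10% and 26.9%. Among the 18 promoters marked in 1 library, 8 held SP/KLF letters, none held ETS letters and 1 a TATA match. AP-1 letters were in 3.59% of promoters marked in both against 4.16% of all promoters, and TEAD letters in 9.52% against 11.9%. NF-Y letters were in 35.5% against 33%, and E-boxes in 9.16% against 6.49%. Over the 824 chromosome 17 promoters, marked or not, the shares were 3.88% for AP-1, 10.4% for TEAD, 35.4% for NF-Y and 9.59% for E-boxes. Against these, promoters marked in both had no excess of E-boxes and nearly the same share of NF-Y letters. Of the 89 promoters with a SMARCB1 peak, 85.4% held SP/KLF letters and 3.37% a TATA match, against 57.5% and 12.4% of the 824.

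Along the whole chromosome, the length covered by H3K27ac was nearly equal in the libraries, and the ratio was higher than on any of the 22 other chromosomes compared (21 autosomes and X). H3K27ac covered 4452 kb in the control and 4410 kb in the knockdown library, a knockdown over control ratio of 0.990, where the other chromosomes ranged from 0.830 (chromosome 7) to 0.967 (chromosome 14). There were 1.08 knockdown peaks for each control peak, against 0.898 to 1.04 elsewhere. Of the knockdown peaks, 390 had no overlapping control peak (19.9%, 18.2 to 21.8%), against 12.2% in the whole list and at most 14.3% on any other chromosome. Of the control peaks, 267 had no overlapping knockdown peak (14.7%, 13.1 to 16.4%), against 17.7% in the whole list. Chromosome 17 therefore had more knockdown-only than control-only peaks, the reverse of the lists as a whole. Chromosome 14 had the same order, with 142 knockdown-only (14.3%) and 122 control-only peaks (12.8%).

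The same shift was present in the widths of peaks found in both libraries. For 1461 pairs in which 1 control peak overlapped 1 knockdown peak and no other, the median knockdown over control width was 0.971 (0.962 to 0.982), the highest of the 23 chromosomes. The next highest was 0.950 on chromosome 18, the lowest was 0.874 on chromosome 19, and all pairs off chromosome 17 had a median of 0.909. The knockdown peak was the wider in 39.7% of the pairs, against 18.7% to 36.1% on the other chromosomes. Pairs with a large difference were few in either direction: 37 had a knockdown width of at most 0.5 times the control (2.53%, against 4.29% of all pairs) and 38 of at least 2 times (2.60%, against 1.93%). The chromosome thus had fewer strongly narrowed and more strongly widened pairs than the genome, by small numbers of pairs.

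**Figure D1:**
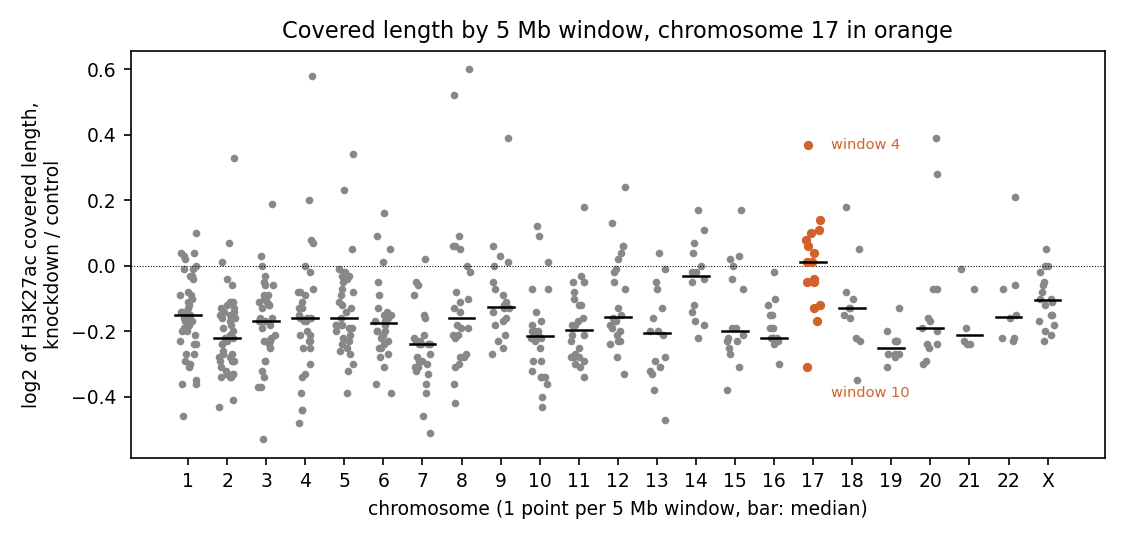
Knockdown over control H3K27ac covered length, as log2, for the 517 windows of 5 Mb with at least 20 control peaks, grouped by chromosome (1 point per window, bars are medians, horizontal jitter only). The 16 chromosome 17 windows (orange) have a median just above 0, and window 4 (0.37) and window 10 (-0.31) are its highest and lowest.

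Single-library peaks were narrow on chromosome 17 as elsewhere. The median width was 501 bp for both control-only and knockdown-only peaks there, the smallest region the lists hold, against 2066 and 1990 bp for shared control and knockdown peaks. Knockdown-only peaks were commoner on chromosome 17 than elsewhere in 4 of 5 width classes, each holding 20% of the whole list. In the narrowest class, 501 to 724 bp, 63.7% (59.0 to 68.2%) of chromosome 17 knockdown peaks lacked a control peak, against 41.5% elsewhere. The shares were 24.4% against 11.4% in the next class, 7.04% against 3.84% in the middle class and 2.73% against 1.41% in the class above it. In the widest class they were 0.217% (1 peak of 460) against 0.425%. The control-only shares on and off chromosome 17 were 54.9% and 62.2% in the narrowest class of control peaks, 16.5% and 21.0% in the next, 3% and 4.86% in the middle class, 1.55% and 1.14% in the class above it and 0.244% and 0.135% in the widest.

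The 17 windows of 5 Mb, numbered from the short-arm end, were not alike. Among the 16 with at least 20 control peaks, the covered length was longer in the knockdown in 9 (56.2%), against 60 of 501 windows on the other chromosomes (12%). The knockdown-only share was above the control-only share in 12 of the 16 (75.0%), against 115 of 501 elsewhere (23%). The control-only share ran from 6.06% (4 of 66 peaks, 2.38 to 14.6%) in window 6 to 24.2% (45 of 186, 18.6 to 30.8%) in window 10. The knockdown-only share ran from 7.45% (12 of 161, 4.31 to 12.6%) in window 10 to 37.0% (71 of 192, 30.5 to 44.0%) in window 4. The intervals of windows 4 and 10 did not overlap for either share. These windows were picked out as extremes of the same shares, so this is a description and no support for a difference. Window 3, with 16 control peaks, was too sparse to place.

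**Figure D2:**
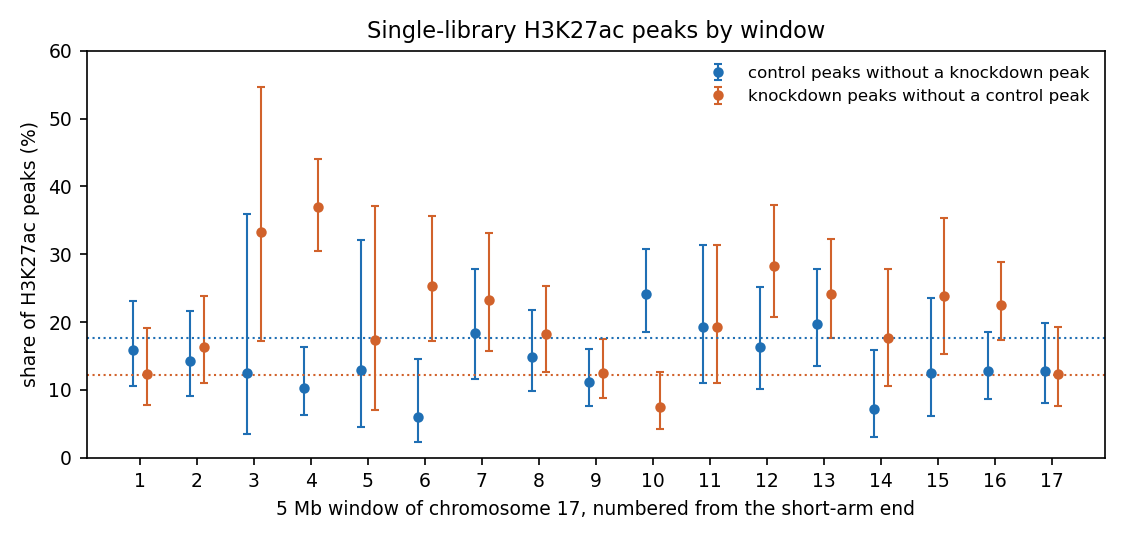
Share of H3K27ac peaks with no overlapping peak in the other library, by 5 Mb window, with 95% Wilson intervals for the counting of peaks. Dotted lines are the shares in the whole lists (17.7% control, 12.2% knockdown). Window 4 has the highest knockdown-only share (37.0%) and window 10 the highest control-only share (24.2%).

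Window 4, chromosome 17 from 15000001 to 20000000 on the short arm, had 145 control and 192 knockdown peaks. Its H3K27ac covered 289 kb in the control and 374 kb in the knockdown, a ratio of 1.29 where the median of 517 windows genome-wide was 0.887. That ratio was the 6th highest of the 517, its knockdown-only share was the highest and its median width ratio of 1.07 (1.02 to 1.15, 113 pairs) the 2nd highest. The excess lay in the 3 steps of 1 Mb from 16000001 to 19000000, a division made after the values were seen. There the lists held 95 control and 144 knockdown peaks, 43.8% of knockdown peaks were knockdown-only, and 196 kb in the control stood against 286 kb in the knockdown. Paired peaks there had a median ratio of 1.16 (1.08 to 1.23), and 57 of 74 were wider in the knockdown. The first and last steps of the window held 50 control and 48 knockdown peaks and a covered ratio of 0.951. The knockdown excess of the window thus lay in its 3 middle steps.

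Most marked genes of window 4 had more H3K27ac in the knockdown. Of 50 protein-coding genes marked by H3K27ac, meaning that at least 1 library had a peak no more than 1 kb from a gene's first or last base, 34 had more covered length in the knockdown within 10 kb of their first or last base and 16 had more in the control. Over all marked genes of the chromosome the counts were 326 and 477. The 10 kb margins of neighbouring genes can overlap, so such counts, here and below, are not of separate measurements. The genes named here are those with the largest differences, picked after their values were seen. TRPV2, a calcium-permeable cation channel, had 13411 bp with the control shRNA and 19469 bp after knockdown. Its neighbour LRRC75A had 9042 and 14388 bp, and a single region in its gene went from 2077 to 5087 bp, 2.45 times. The margins of TRPV2 and LRRC75A overlap, so their values are not separate measurements. LGALS9C, of the galectin family of sugar-binding proteins, had 3826 and 8420 bp. The 7 marked genes of the chromosome with the largest excess in the knockdown were all in window 4 (these 3, SHMT1, MPRIP, ALKBH5 and PEMT). LGALS9C and TBC1D28 belong to families with near-identical copies in the interval, so peaks there are uncertain.

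SHMT1, the cytosolic serine hydroxymethyltransferase of folate metabolism, had 2507 bp with the control shRNA and 6940 bp after knockdown. PEMT, which makes phosphatidylcholine by methylation, had 4944 and 8193 bp. MPRIP, which links myosin phosphatase to RhoA, had 5690 and 9156 bp. ALKBH5, an RNA demethylase, had 5132 and 8459 bp, and LLGL1, a cell polarity protein whose margin overlaps that of ALKBH5, 4610 and 7464 bp. The ubiquitin gene UBB had 4679 and 7557 bp. FLCN, the folliculin tumour suppressor, had 6450 and 8029 bp, and SREBF1, which encodes the sterol-regulated transcription factor SREBP-1, 13482 and 14956 bp.

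The promoters printed above for this interval differed in how they became knockdown-only. At PRPSAP2, a partner of phosphoribosyl pyrophosphate synthetase, at chromosome 17, 18856299 to 18931287, 1275 bp of control and 4414 bp of knockdown H3K27ac lay near the gene, and its gene ends were marked in the knockdown only. At TBC1D28, a peak was present in both libraries, 1187 bp in the control (18642972 to 18644158) and 3202 bp in the knockdown (18641310 to 18644511). The knockdown region passed the start site and the control region stopped short of it. TBC1D26, another gene of the same family at 15732277 to 15744784, had 0 and 1018 bp. B9D1, a component of the ciliary transition zone in the last step of the window, had the opposite direction, with 9795 bp with the control shRNA and 7298 bp after knockdown. MFAP4, a matrix-associated protein, was the single gene of the window marked in the control only, with 4151 and 3004 bp.

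**Figure D3:**
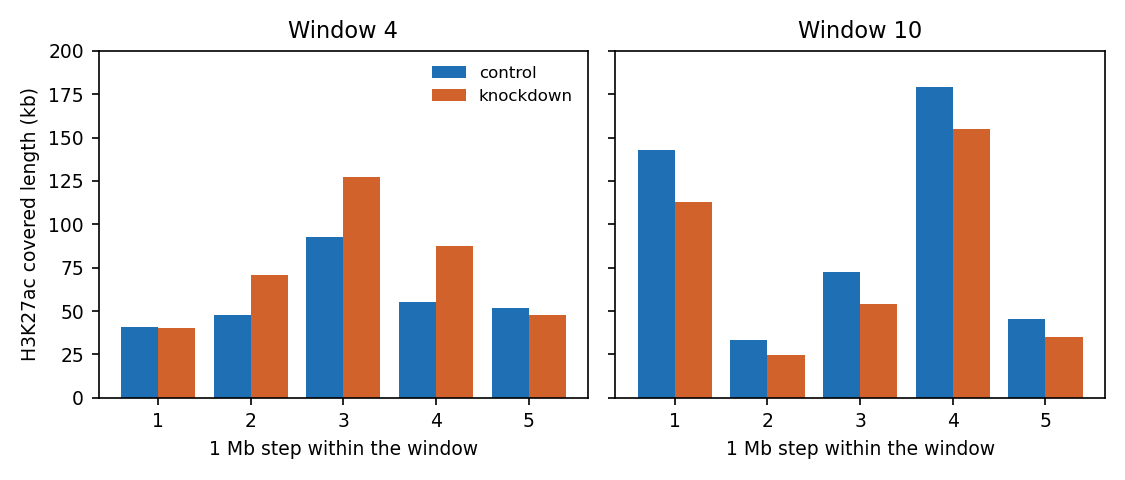
H3K27ac covered length in kb for each 1 Mb step of window 4 (left) and window 10 (right), control in blue and knockdown in orange, 1 library each. In window 4 the knockdown bar is the taller in steps 2, 3 and 4 (70.6, 127 and 87.7 kb against 47.6, 92.9 and 55.5 kb), and in window 10 the control bar is the taller in all 5 steps.

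Window 10, from 45000001 to 50000000 on the long arm, had the opposite difference. It held 186 control and 161 knockdown peaks, covering 474 and 382 kb, a ratio of 0.806. The covered length was longer in the control in each of its 5 steps of 1 Mb, with ratios from 0.742 to 0.862, and in the next step beyond it (113 and 95 kb). The median width ratio was 0.861 (0.824 to 0.894, 134 pairs), and 20 pairs (14.9%) were wider in the knockdown. Set beside the genome, the window was less unusual than window 4: its covered ratio was the 53rd lowest of 517 and its control-only share the 72nd highest. It stood apart mainly from the rest of its own chromosome.

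Of the 60 marked genes of window 10, 53 had more covered length in the control and 7 in the knockdown. MAP3K14, the kinase of the non-canonical NF-kB pathway, had 20198 bp with the control shRNA and 11554 bp after knockdown. NFE2L1, a transcription factor of proteasome genes, had 13686 and 5725 bp, and its neighbour COPZ2, a coatomer subunit, 12457 and 7302 bp. CBX1, the heterochromatin protein HP1 beta, lies next to them and had 9948 and 6736 bp. The 10 kb margins of these 3 neighbours overlap, so their values are not separate measurements. ITGB3, the integrin beta 3 chain, had 6830 and 3296 bp, and MYL4, the atrial myosin light chain beside it, 6607 and 3928 bp. The ubiquitin-conjugating enzyme gene UBE2Z had 4891 and 1981 bp, and the formin FMNL1 12583 and 9872 bp.

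Window 10 also held several control-only genes. Of 20 control-only genes on the chromosome (1.73%, against 2.18% of 19821 genes), 5 were in window 10 (6.10% of its 82 genes), where no gene was knockdown-only. CRHR1, the receptor for corticotropin-releasing hormone, at 45784320 to 45835828, had 1928 bp with the control shRNA and 0 bp after knockdown in the 10 kb around its ends. RPRML had 923 and 0 bp, PHOSPHO1, a phosphatase of bone mineralisation, 791 and 0 bp, and NGFR, the low-affinity nerve growth factor receptor, 772 and 0 bp. Among the 7 genes with more in the knockdown were the acetyltransferase gene KAT7 (8642 and 10229 bp) and its neighbour TAC4, a tachykinin precursor (8017 and 9942 bp).

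**Figure D4:**
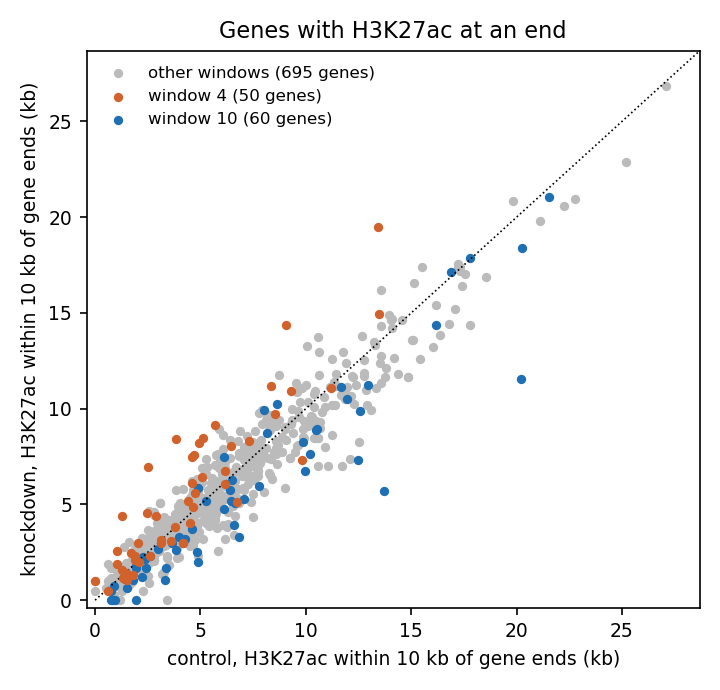
H3K27ac covered length within 10 kb of the ends of each of the 805 marked protein-coding genes of chromosome 17, control on the x axis and knockdown on the y axis, in kb; the dotted line is equality. Window 4 genes (orange) lie mostly above the line (34 of 50) and window 10 genes (blue) mostly below it (53 of 60).

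The other windows had covered ratios between those of windows 4 and 10. Windows 12, 13, 15 and 16 on the long arm had knockdown-only shares of 28.3%, 24.2%, 23.9% and 22.5%, with covered ratios of 1.03, 1.01, 1.08 and 1.04. Window 14, which holds PRKCA and AXIN2, had a control-only share of 7.25% and a covered ratio of 1.10. Windows 1 and 2, at the gene-dense short-arm end, had ratios of 0.912 and 0.922 and median width ratios of 0.928 and 0.906, close to the genome's. In window 2, 76 of 91 marked genes had more covered length in the control. Without windows 4 and 10 the chromosome had 1487 control and 1603 knockdown peaks, a knockdown-only share of 19.2% (17.3 to 21.2%), a covered ratio of 0.990 and a median width ratio of 0.975. The values of the whole chromosome were thus close to those of the remaining windows. Without window 4 alone, the covered ratio was 0.969 and the median width ratio 0.965.

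The widest single-library peaks lay outside both of those windows. The widest control-only peak, 3432 bp at 34252068 to 34255499, reached the start of CCL2, the chemokine that draws monocytes, and no knockdown peak lay within 10 kb of it. HAP1, a huntingtin-associated protein, had a control-only peak of 2395 bp 3555 bp away. It overlapped a SMARCB1 peak, as did a control-only peak of 2203 bp whose nearest gene was NLRP1, 200352 bp away. A control-only peak of 2171 bp at PHF12, a transcriptional corepressor, had 4216 bp of knockdown H3K27ac within 10 kb, whereas none lay within that distance of the HAP1 peak. Another, of 2236 bp, was nearest to the hair keratin KRT37.

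The widest knockdown-only peak was one of 4410 bp at 59000739 to 59005148 in TRIM37, a ubiquitin ligase. Control H3K27ac of 3397 bp lay within 10 kb of it. The others were 2532 bp in a gene-poor interval nearest to KIF2B, 2471 bp in the lymphoid transcription factor IKZF3, 2437 bp in the myosin MYO18A, 2305 bp in the ion channel ASIC2 and 2052 bp in the cofilin phosphatase SSH2. No control H3K27ac lay within 10 kb of the KIF2B, IKZF3, ASIC2 and SSH2 peaks. None of the 6 knockdown-only peaks overlapped a SMARCB1 peak, against 3 of the 6 control-only peaks. Over the whole chromosome SMARCB1 lay at 7 of 390 knockdown-only and 15 of 267 control-only peaks. It lay at 268 of all 1956 knockdown and 273 of all 1818 control peaks, so both single-library kinds held it less often. Off chromosome 17 it lay at 38 of 3756 knockdown-only and 71 of 5992 control-only peaks, a lower share for each kind.

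Calls at gene ends followed small shifts as well as whole peaks. Of the 1157 genes, 775 were marked in both libraries, 10 in the knockdown only (0.864%, against 0.752% of all genes) and 352 in neither. Among knockdown-only genes, CHRNE, the adult muscle acetylcholine receptor epsilon subunit, had 0 bp with the control shRNA and 1002 bp after knockdown. GFAP, the astrocyte intermediate filament, had 9589 and 10848 bp nearby, and LLGL2, a relative of LLGL1, 2519 and 3230 bp. Among control-only genes, STAT5A had 3275 and 1484 bp and KRTAP2-2, a hair keratin-associated protein, 13734 and 11651 bp. KCNAB3, a potassium channel beta subunit, had 5383 and 3883 bp, and the muscle sarcoglycan gene SGCA 5473 and 3998 bp. SEZ6 was marked in the knockdown only although more lay near it in the control (7389 bp against 5138 bp), and BHLHA9 in the control only although more lay near it in the knockdown (1777 and 1830 bp).

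Among pairs whose wider peak was at least 2 kb, the lowest ratio was in ITGB3. There a control region of 2718 bp (47304280 to 47306997) faced a knockdown region of 501 bp, a ratio of 0.184. VPS53, a tethering factor of endosome traffic, had 2317 and 501 bp, and SLC2A4, the insulin-responsive glucose transporter GLUT4, 2108 and 501 bp. ITGA3, the integrin alpha 3 chain, had 3523 and 1032 bp within the gene, the ubiquitin ligase gene MARCHF10 2273 and 792 bp, and the prohibitin gene PHB1 2597 and 1031 bp at its start. At the other end, a region 8943 bp from the chemokine gene CCL4 went from 501 bp in the control to 2442 bp in the knockdown, a ratio of 4.87. MILR1, a mast cell receptor, had 716 and 2297 bp, a region nearest to the helicase DHX8 768 and 2401 bp, and SEC14L1 1078 and 2901 bp.

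The broadest acetylated regions were nearly as long in both libraries. The widest control region, 49448 bp at 64642679 to 64692126, ran from SMURF2, a ubiquitin ligase of TGF-beta signalling, past its start site, and 46869 bp of it were covered by 3 knockdown peaks. A region of 30853 bp spanned keratin-associated protein genes around KRTAP4-9, with 28272 bp covered in the knockdown. Regions at LASP1, an actin-binding adaptor (24146 bp), ITGA3 (22678 bp), the connexin GJC1 (21960 bp) and the autophagy gene VMP1 (20980 bp) were covered over 23325, 21010, 20671 and 20815 bp. The ITGA3 region overlapped 5 SMARCB1 peaks. So ITGA3 held a broad region kept over most of its length beside a narrower one that was much reduced.

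The tandem gene families differed in how many members were acetylated. Beside their counts, here and in the next paragraph, 67.0% of all protein-coding genes of the chromosome were marked in both libraries. The type I keratin genes, which encode acidic epithelial and hair keratins, span 927 kb in window 9, and 8 of 27 were marked in both libraries and none in 1 only. KRT19, the simple epithelial keratin, had 12307 bp with the control shRNA and 10268 bp after knockdown, KRT15 9485 and 7723 bp, and the hair keratin KRT33B 9710 and 10352 bp. The basal and stress keratins KRT14, KRT16 and KRT17 had no control H3K27ac within 10 kb, and 0, 657 and 1002 bp in the knockdown. The whole span had 28 control and 30 knockdown peaks, with 4 in 1 library only from each. The HOXB genes, homeobox regulators of body position in window 10, were marked in both libraries at 8 of 10, with HOXB6 at 21535 and 21080 bp, HOXB3 at 20253 and 18369 bp and HOXB5 at 16882 and 17133 bp. Their span of 200 kb had 16 peaks in each library and a covered ratio of 0.929, above the ratio of the window around it, and no SMARCB1 peak.

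CCL2 was the only one of 14 CC chemokine genes with H3K27ac at an end. The 13 others, CCL5 and CCL3 among them, were unmarked in both libraries. The 1 Mb step that holds the first chemokine group, in window 7, had 7 control and 2 knockdown peaks, of which 5 control peaks were control-only, covering 11 and 3.93 kb. None of 6 muscle myosin heavy chain genes, none of 9 olfactory receptor genes and none of 7 CD300 leukocyte receptor genes was marked. In the myosin span the control had no peak and the knockdown 2, which covered 1450 bp in all, beside MYH2. GH1, pituitary growth hormone, had 1 minimal peak of 501 bp after knockdown and none in the control, while its 4 placental relatives were unmarked at their ends. Of the Schlafen genes, regulators of transfer RNA and growth, SLFN5, SLFN12 and SLFN13 of 6 were marked in both libraries, and SLFN11 had 0 bp in either. ABCA5 was the only marked gene of 5 ABCA transporters, with 1448 and 1958 bp. Of 5 lipoxygenases, ALOX12 and ALOXE3 were marked in both libraries.

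Around ERBB2, the HER2 receptor gene in window 8, 15 of 19 genes were marked in both libraries. The share was 58.8% over all protein-coding genes of window 8 and 67.0% over those of the chromosome. Of the 16 marked genes, 13 had more covered length in the control and 3 in the knockdown. Over the 805 marked genes of the chromosome these counts were 477 and 326. The 10 kb margins of many of these neighbours overlap, so their values are not separate measurements. TCAP and PNMT, for example, both had 2666 and 2235 bp. ERBB2 had 4633 bp with the control shRNA and 2877 bp after knockdown, and its neighbour GRB7, a receptor adaptor, 8230 and 6624 bp. CSF3, the granulocyte growth factor, and MED24, a Mediator subunit, share a broad region and had 14088 and 14223 bp and 17576 and 17054 bp. NEUROD2, a neuronal transcription factor, was control-only with 914 and 293 bp.

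Genes of the cell's general machinery were marked throughout. All 6 ribosomal protein genes, all 7 proteasome genes and all 12 actin and translation genes listed were marked in both libraries. The cavin gene CAVIN1 had 27068 bp with the control shRNA and 26864 bp after knockdown, among the longest on the chromosome, and profilin (PFN1) 14840 and 11679 bp. All 18 chromatin regulators on chromosome 17 were marked in both libraries, and 15 had more covered length in the control. Of all protein-coding genes of the chromosome, 67.0% were marked in both, and 477 of 805 marked genes had more in the control. Among them, the SWI/SNF subunit genes SMARCE1 and SMARCD2 had 2364 and 2328 bp and 7854 and 7311 bp, KDM6B, an H3K27 demethylase, 12776 and 12525 bp, and PHF12 12086 and 7358 bp. Of 15 tumour suppressor and DNA repair genes, 14 were marked in both libraries, with NF1 at 4352 and 4098 bp, BRCA1 at 6065 and 6971 bp and RAD51D at 6777 and 8324 bp. PRKAR1A was in neither, with the 10 kb around its record ends empty in both lists.

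Signalling and matrix genes were more mixed than those of the general machinery. STAT3 had 6323 bp with the control shRNA and 4612 bp after knockdown, and STAT5A and STAT5B were both control-only, the latter with 2079 and 1450 bp. The cytokine feedback gene SOCS3 had 11144 and 11117 bp. Of 14 matrix and adhesion genes, 10 were marked in both libraries, close to the 67.0% of all protein-coding genes of the chromosome. Among the 10 were TIMP2, a metalloproteinase inhibitor, at 13100 and 9945 bp, COL1A1 at 6741 and 5351 bp and ITGB4 at 3529 and 3650 bp. The endothelial genes PECAM1 and ICAM2 were unmarked. SOX9, TBX2, KCNJ2 and DLX4 were marked in both libraries, and TBX21, TBX4, DLX3 and KCNJ16 in neither.

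SMARCB1 peaks were denser on chromosome 17 than on any other chromosome, at 5.71 per Mb and 41.1 per 100 protein-coding genes, where the next highest values were 4.11 per Mb (chromosome 19) and 29.1 per 100 genes (chromosome 10). The chromosome had 13.9 genes per Mb, 2nd to chromosome 19. SMARCB1 lay within 1 kb of an end at 213 genes (18.4%, 16.3 to 20.7%), against 12.5% of all genes. Windows 4, 8, 9, 16 and 17 had 9 to 11.4 SMARCB1 peaks per Mb, and windows 3, 5, 7, 12, 14 and 15 had 1.40 to 2.80. Window 4, with 54, had the 3rd highest number of 517 windows. Its number per 100 genes, 80.6, was exceeded only in window 5, where 11 peaks faced 11 genes.

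By the authors' position classes, chromosome 17 had more SMARCB1 peaks per Mb than the pooled other chromosomes in every class. It did so less at promoters and in 5′ UTRs than in introns, exons and intergenic sequence. Single chromosomes were not compared by class. Values per Mb do not allow for gene density, which was 13.9 genes per Mb on chromosome 17 and 6.33 off it. Per gene, 5′ UTR peaks were fewer on chromosome 17, with 8 for 1157 genes against 195 for 18664. Promoter peaks numbered 111, or 23.4% (19.8 to 27.4%), against 29.2% of the whole list, and peaks in 5′ UTRs 8, or 1.68%, against 4.90% off chromosome 17. Introns held 157 peaks (33.1% against 28.9%), intergenic sequence 99 (20.8% against 18.3%), exons 57 (12% against 10.1%), transcription termination sites 20 (4.21% against 2.41%), 3′ UTRs 16 and non-coding RNA genes 7. Per Mb, chromosome 17 exceeded the rest by 3.31 times for promoter peaks, 1.45 times for 5′ UTR peaks, 4.83 times for introns, 4.82 times for intergenic sequence, 5.02 times for exons and 7.37 times for termination sites. Termination-site peaks on chromosome 17 were 17.2% of all peaks of that class, and those in 5′ UTRs 3.94%. The classes differed along the chromosome too: window 17, at the long-arm end, had 16 promoter peaks of 37, window 4 had 26 intron peaks and 9 promoter peaks of 54, and window 9 had 17 exon peaks of 53.

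**Figure D5:**
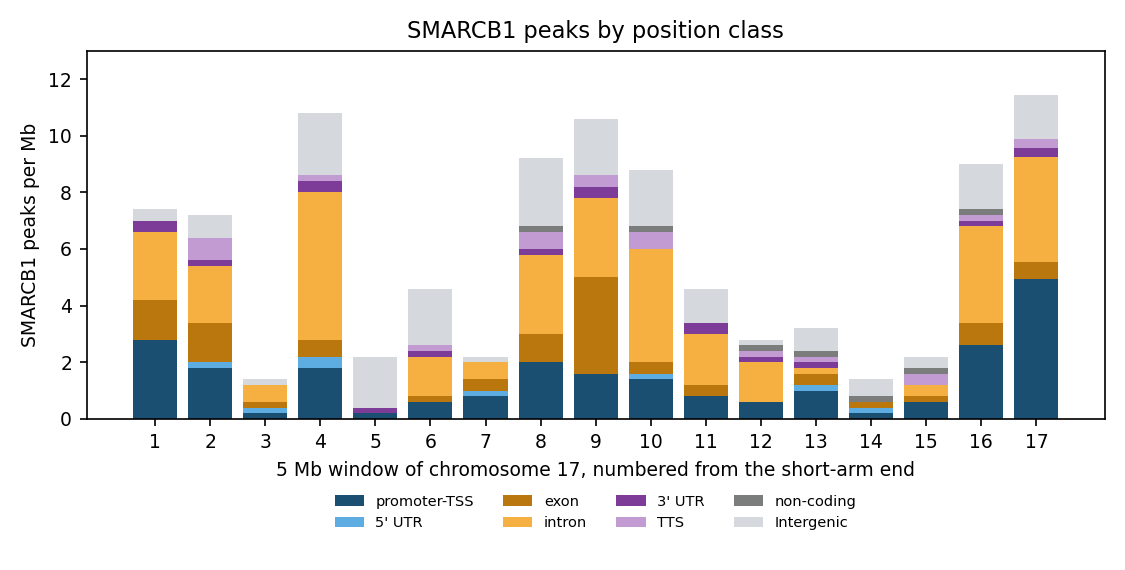
SMARCB1 peaks per Mb in each 5 Mb window of chromosome 17 (window 17 is 3.24 Mb long), stacked by the authors' position class. Windows 4, 9 and 17 are the tallest (10.8, 10.6 and 11.4 per Mb), with introns the largest class in window 4, exons in window 9 and promoters in window 17.

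The share of SMARCB1 peaks in acetylated chromatin was low on chromosome 17. Of its SMARCB1 peaks, 290 overlapped a control H3K27ac peak (61.1%, 56.6 to 65.3%), against 70.6% of the whole list. That was the lowest share of the 23 chromosomes, with chromosome 21 (62.5%) and chromosome 6 (63.7%) close to it. A knockdown peak was overlapped by 280 (58.9%, 54.5 to 63.3%), against 69.0%, and chromosome 21 also had 58.9%. H3K27ac was present in both libraries at 272, in the control only at 18, in the knockdown only at 8 and in neither at 177 (37.3%, against 27.2% off chromosome 17). At promoters the overlap with control H3K27ac was 95.5% on the chromosome and 96.8% elsewhere. It was 40.4% (31.3 to 50.3%) against 57.8% for intergenic peaks and 47.4% (35.0 to 60.1%) against 60.2% for exon peaks. At termination sites the order turned, with 80.0% (58.4 to 91.9%, 16 of 20) against 49.0%. Among windows with at least 30 SMARCB1 peaks the overlap was lowest in window 10, at 43.2% (19 of 44), and highest in window 17, at 81.1% (30 of 37).

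Seen from the acetylated regions, 15% of control peaks on chromosome 17 held a SMARCB1 peak, against 8.31% elsewhere. Control peaks with SMARCB1 were control-only in 5.49% (15 of 273, 3.36 to 8.87%), and those without in 16.3%, where the other chromosomes had 2.55% and 19.3%. Knockdown peaks with SMARCB1 were knockdown-only in 2.61% (7 of 268), and those without in 22.7%, against 1.39% and 12.7% on the other chromosomes. Peaks with SMARCB1 were also wider, with a control median of 2678 bp against 1608 bp, and the part of width in these shares was not tested. In window 4, where knockdown-only peaks were commonest, 31 of 54 SMARCB1 peaks lay over H3K27ac of both libraries, 3 over that of the knockdown only, none over that of the control only and 20 over neither.

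The SMARCB1 peaks of highest value were over keratin and actin genes. Each peak carries a number from the authors, of a unit that no source used here gives, which served only to rank peaks within the list. The median was 11.6 on chromosome 17 as off it. The peak over KRT17, at 41619343 to 41624751, had a value of 1116, the 4th highest of the whole list, and its 5409 bp covered the whole gene. The control had no H3K27ac under it and the knockdown 1002 bp. Part of KRT14 lay under a peak of 3182 bp with a value of 204, and part of KRT15 under one of 1795 bp with a value of 59.2. Neither peak overlapped H3K27ac in either library. Within 10 kb of the KRT15 ends, however, lay 9485 bp of control and 7723 bp of knockdown H3K27ac, and none lay that near KRT14. The keratin span held 15 SMARCB1 peaks, and 4 of them overlapped control H3K27ac. SMARCB1 lay at an end of 5 of the 27 type I keratin genes (KRT14, KRT15, KRT16, KRT17 and KRT19). That was close to the 18.4% of all protein-coding genes of the chromosome.

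Outside the keratins, the peak at ACTG1, cytoplasmic gamma actin, had a value of 213 and covered 2299 bp, of which 2179 bp were acetylated in the control list and 2299 bp in the knockdown list. RAI1, the gene of Smith-Magenis syndrome in window 4, had an intronic peak with a value of 55.5 wholly within H3K27ac of both libraries. The peak at the translation initiation helicase EIF4A1 had a value of 51.2, no control H3K27ac and 411 bp of knockdown H3K27ac under it, although 14373 and 11789 bp lay within 10 kb of the gene ends. A peak of 500 bp in the gene-free pericentromeric interval, 1147289 bp from its nearest gene WSB1, had a value of 48.6 and no H3K27ac. The remaining ones were at CDR2L (48.1), KCTD11 (44.9) and RPL19 (44.4), all over H3K27ac of both libraries. SMARCB1 lay at an end of 5 of the 6 ribosomal protein genes and 7 of the 12 actin and translation genes, against 18.4% of all protein-coding genes of the chromosome.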

How the data were processed

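ChIP-seq of SMARCB1 and of H3K27ac gave 1 peak list per group, with groups taken from the sample titles. The submitters' processing notes name Bowtie2, HOMER and the build hg38, with no version. Each H3K27ac list came from a single library, per the file headers, called with HOMER's histone settings (peaks of 500 bp, at least 1000 bp apart before stitching, thresholds of 11 tags in the control and 10 in the knockdown). The deposited score is a placeholder, equal in every H3K27ac peak, so widths were used. The headers give a fragment length of 190 for the control and 158 for the knockdown library. Its part in the widths and covered lengths was not tested. Precision is limited by 13235203 and 10203310 tags. No source used here gives the caller settings or depth of the SMARCB1 list.

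Positions are 1-based in hg38. An overlap of at least 1 base made a peak shared, as checked with bedtools 2.31.1. Windows of 5 Mb took peaks by their centre, up to the end of the last gene record, and chromosome lengths per Mb were taken the same way. Gene records came from RefSeq GRCh38.p14. Gene ends include 3′ ends and far alternative starts. Shares have 95% Wilson intervals and medians order-statistic intervals. The code was tested on simulated data. Python 3.11.15, NumPy 2.4.6, pandas 2.3.3 and SciPy 1.17.1 were used.

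The members and the 19 gene lists were chosen with earlier results of these data known. The rule for names took the 6 widest single-library peaks per direction, the 6 lowest and highest width ratios, the 6 widest control regions, the 10 SMARCB1 peaks of highest value, the 6 single-library genes per direction with the largest difference, and list members by state and covered length. Genes outside it, such as those named for windows 4 and 10, were chosen after their values were seen. List members without a chromosome 17 record in the table were dropped. Some named items are not reported here. The NF-kB motif of the plan is not reported. Alternatives changed the overlap, the widths kept, merging, the windows, the gene end distance and the SMARCB1 peaks kept.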

Additional observations from a re-analysis of the deposited data

How the results depend on the processing

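Keeping the wider 50% of each H3K27ac list gave a control-only share of 9.40% and a knockdown-only share of 12.5%. Chromosome 17 was then 4th of 23 in its knockdown-only share, and 1st in the 3 other settings. Merging peaks within 1 kb gave a control-only share of 12.4%. Leaving out window 4, an alternative chosen after seeing the data, gave a knockdown-only share of 18.1%. It also gave a median width ratio of 0.965 and a covered ratio of 0.969, close to the 0.967 of chromosome 14. The upper 50% of SMARCB1 peaks by value left 268 peaks, with 76.9% over control H3K27ac and 33.2% at promoters. The shares of other chromosomes under that setting are not given here. With windows of 10 Mb the highest control-only share was 17.4%, and with windows shifted by 2.5 Mb it was 24.4%. Knockdown-only genes numbered 18 with gene ends of 2.5 kb, 38 with the wider 50% of peaks and 4 with start sites alone. Control-only genes numbered 32 with the wider 50% and 12 with start sites, the latter also chosen after seeing the data, over 824 genes. With gene ends of 2.5 kb there were 25 control-only genes. Counts of single-library genes thus moved with the peaks kept and, for knockdown-only genes, with the gene end distance. Apart from the alternative without window 4 alone, the median width ratio ranged from 0.967 to 0.975. It was the highest of 23 chromosomes in each of the 4 settings compared. With the same exception, the covered ratio ranged from 0.983 to 0.990. No paired analysis was possible because each group had 1 library.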

Other observations

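Of 95 microRNA hairpins on chromosome 17, 22 had H3K27ac in both libraries within 1 kb of an end, 1 in the control only (MIR6865), 1 in the knockdown only (MIR6782) and 71 in neither. SMARCB1 lay at 2 of the 95. No share over the hairpins of other chromosomes is given, so these counts are a description. Of the 7 SMARCB1 peaks that the authors classed as non-coding, 1 lay in SNHG16, a small nucleolar RNA host gene, with a value of 23.8 and no H3K27ac in either library. The one in LINC00673 had a value of 11.6 and lay over H3K27ac of both libraries, and the one in SP2-AS1 had a value of 11.1 and lay over neither.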
